A study of Homo sapiens with 9 samples.

Results

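The HOX genes of the HOXA, HOXB, HOXC and HOXD clusters were followed in RNA-seq libraries of U2-OS, a human osteosarcoma cell line. Members were all genes whose GENCODE symbol is HOX, a cluster letter from A to D and a number, which gave 39 of the 60609 gene identifiers in the count tables: 11 in HOXA, 10 in HOXB, 9 in HOXC and 9 in HOXD. The rule uses symbols and no measured value, but it was chosen with earlier results of these data known. The study overexpressed NCBP2, the small subunit of the nuclear complex that binds the cap of new RNAs, in U2-OS cells, and compared 2 such clones, A1 and A4, with clones made the same way with an empty vector. Each NCBP2 clone gave 3 libraries (replicates A, B and C), and the vector group held 3 different clones with 1 library each (clone 1 is replicate C, clone 2 is replicate A and clone 3 is replicate B). All libraries were made after ribodepletion from cells in DMEM with serum; the GEO molecule label names polyA RNA instead. An NCBP2 clone is a single line, so its 3 libraries vary within that line, while the vector libraries vary between lines. The labels do not say whether the 3 libraries of a clone came from separate cultures, so p-values measure only the spread between these libraries, which may be technical.

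HOX genes encode transcription factors that bind DNA through a homeodomain, encoded by a stretch called the homeobox. In each cluster the genes are numbered from the 3' end, and genes of the same number in different clusters form a paralog group: low numbers are used toward the head of the embryo and high numbers toward the tail and the ends of the limbs. Connective-tissue and bone-forming cells are known to keep part of this positional pattern in culture.

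The homeoboxes of paralog group 13, the most posterior genes of the clusters, are shown because the same protein module is encoded by 3 genes that were read here in every library and by 1, HOXD13, that was not read in 7 of 9. Each run is the 180-base homeobox of the GENCODE release 44 canonical transcript, 5′ to 3′ on the coding strand, read by script from the transcript sequences; capitals mark the 6 codons of the conserved core of the helix that contacts DNA.
HOXA13, chr7:27198222-27198401, minus strand, exon 2: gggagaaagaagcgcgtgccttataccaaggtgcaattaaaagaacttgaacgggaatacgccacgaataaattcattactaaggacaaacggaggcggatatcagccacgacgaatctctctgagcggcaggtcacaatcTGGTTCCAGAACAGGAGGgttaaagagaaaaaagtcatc
HOXB13, chr17:48726820-48726999, minus strand, exon 2: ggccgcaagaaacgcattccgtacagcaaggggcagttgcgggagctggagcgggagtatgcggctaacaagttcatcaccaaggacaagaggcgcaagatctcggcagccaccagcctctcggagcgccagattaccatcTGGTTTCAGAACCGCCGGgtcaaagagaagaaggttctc
HOXC13, chr12:53945041-53945220, plus strand, exon 2: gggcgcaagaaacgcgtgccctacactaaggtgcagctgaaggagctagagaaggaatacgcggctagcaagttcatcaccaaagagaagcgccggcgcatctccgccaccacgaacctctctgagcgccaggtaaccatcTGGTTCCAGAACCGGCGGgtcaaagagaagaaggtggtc
HOXD13, chr2:176094524-176094703, plus strand, exon 2: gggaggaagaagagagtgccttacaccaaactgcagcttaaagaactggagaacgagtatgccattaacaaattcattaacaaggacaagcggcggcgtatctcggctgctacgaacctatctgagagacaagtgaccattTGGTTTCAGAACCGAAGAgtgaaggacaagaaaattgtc
Positions are on GRCh38. Base identity between pairs of these 4 homeoboxes ran from 69.4% (HOXA13 with HOXB13) to 80.0% (HOXB13 with HOXC13). A homeobox was found in all 39 canonical transcripts, and identity was 69.4% to 90.6% (median 81.7%) over the 42 pairs within a paralog group and 47.8% to 91.1% (median 60.6%) over the 699 other pairs.

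Reads from such similar genes can be hard to place, so the longest exact stretch shared by 2 members was measured over all 741 pairs of canonical transcripts. Its median was 15 bases, and it passed 50 bases in 2 pairs. No pair shared more than 100 bases.

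Depth and cell identity were checked first. The sense-strand counts assigned to genes were 29234022 to 50554080 per library. NCBP2 stood at 299 to 348 counts per 1000000 (CPM, on TMM-scaled library sizes) in clone A1, 456 to 1035 CPM in clone A4 and 90.6 to 98.4 CPM in the vector clones, so the groups did not overlap. Of 9 osteoblast and mesenchymal markers, 5 (RUNX2, COL1A1, SPARC, VIM and ALPL) were at 1 CPM or more in every library; the osteoblast markers SP7 and BGLAP had 1 count each in all libraries together, IBSP had none, and COL1A2 did not pass 1.15 CPM. Of the markers of other cell types, 1 of 4 epithelial genes, EPCAM, was also at 1 CPM or more in every library. It stood at 2.42 to 5.58 CPM, against 1.195 to 4.12 CPM for ALPL. The 4 epithelial genes summed to 4.72 to 6.21 CPM in clone A1, 6.40 to 9.29 in clone A4 and 8.27 to 10.8 in the vector clones. The 4 blood genes stayed at or below 2.01 CPM each with CD3E and HBB at 0, and the telomerase gene TERT was at 0 in all 9 libraries. Clone A1 replicate A stood apart: its log2 levels correlated at 0.899 to 0.928 with the other 8 libraries across genes, against 0.947 to 0.970 for the other 28 pairs. It also had the lowest sense-strand count (29234022) and the largest share of reads in no gene (63.6%). Its genes with a count were the fewest, at 21823 against 25390 or more elsewhere. Several results below are also given without this library.

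U2-OS libraries read most of the HOXA, HOXB and HOXC clusters and little of HOXD. By mean level over the 9 libraries, 14 members were at 10 CPM or more, 12 from 1 to under 10 CPM, 8 from 0.1 to under 1 CPM and 5 under 0.1 CPM. At 1 CPM or more in every library stood 23 of 39 members: 8 of 11 in HOXA, 6 of 10 in HOXB, 8 of 9 in HOXC and 1 of 9 in HOXD. Over all 19886 protein-coding genes in the tables the same criterion was met by 11243, or 56.5%. A further 8 members were under 1 CPM in every library, and 8 crossed that level between libraries. Summed over members, HOXC held 35.2% ± 2.3 (SD, n = 9 libraries) of the HOX signal, HOXB 29.7% ± 3.8, HOXA 29.2% ± 2.0 and HOXD 5.87% ± 1.2; these sums are not per length, so they also follow the lengths of the genes.

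**Figure D1:**
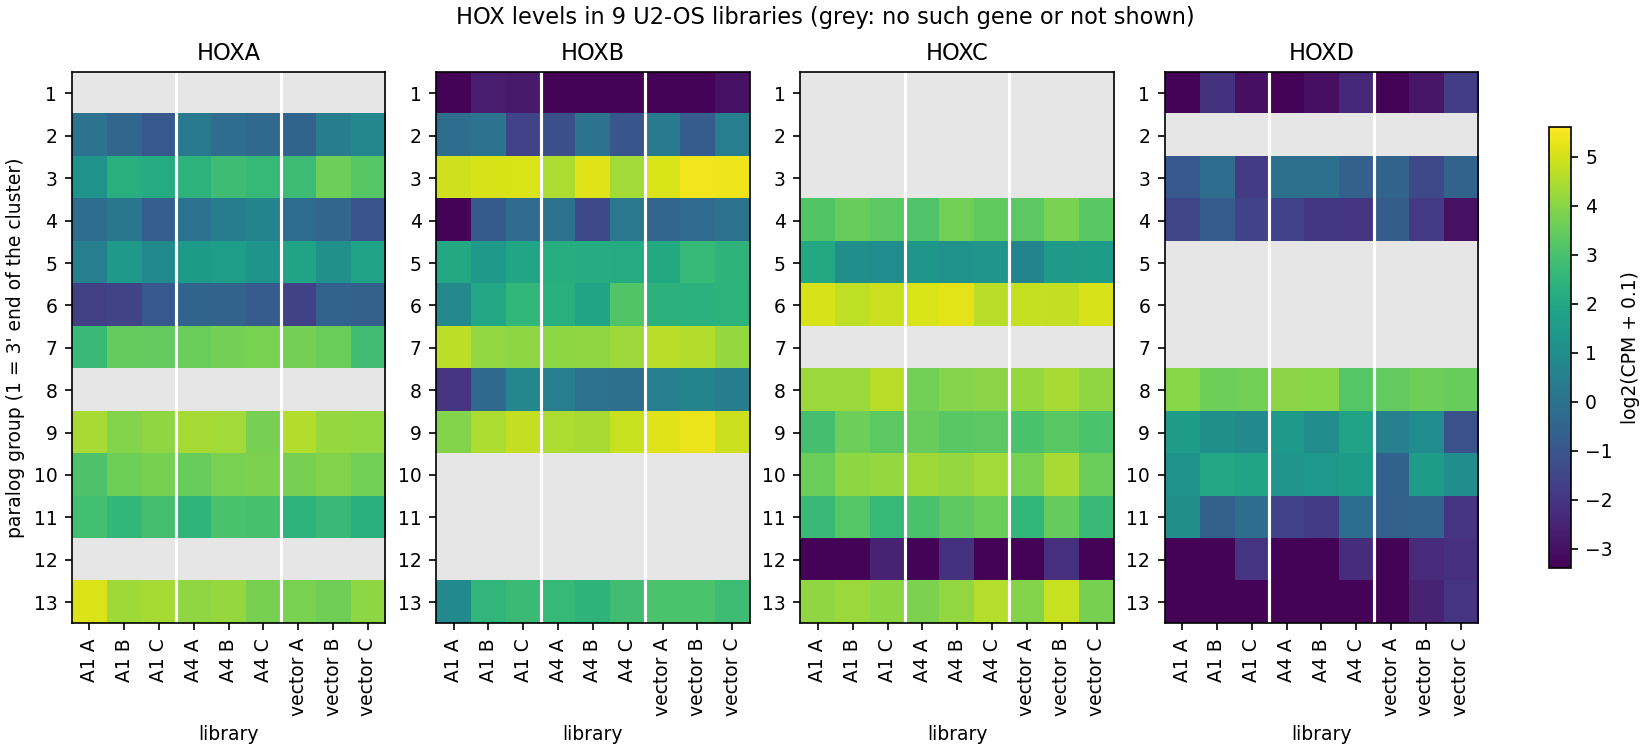
Level of 38 of the 39 HOX genes in each of the 9 libraries, as log2(CPM + 0.1) by colour, with 1 panel per cluster and rows by paralog group; grey rows are paralog groups that the cluster lacks or, in 1 case, a gene not shown. Every HOXC row except group 12 has a mean of 1 CPM or more. In HOXD only groups 8, 9 and 10 do, and of these only group 8 has a mean of 10 CPM or more. The colours of a row change little from library to library for the genes at 10 CPM or more.

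Along the clusters, 3 of the 8 anterior members (groups 1 to 3) reached a mean of 1 CPM, as did 11 of the 15 central members (groups 4 to 8) and 12 of the 16 posterior members (groups 9 to 13). On the scale that allows genes to be compared, CPM per kilobase of exon not shared with another gene on the strand, the median member stood at 0.34 in the anterior, 2.33 in the central and 2.49 in the posterior zone. Groups 5, 7, 8, 9 and 10 had every member at a mean of 1 CPM or more, whereas groups 2 and 12 had none.

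The order of levels per kilobase was led by HOXB7 at 13.1 CPM per kilobase, HOXC6 at 10.5 and HOXB9 at 10.4. HOXC13 (7.80), HOXC10 (7.61), HOXC8 (7.50), HOXA9 (7.26), HOXC9 (6.03) and HOXD8 (4.93) were also among the first 10, all in CPM per kilobase. None of the 38 neighbouring pairs in the order of 39 had ranges that stayed apart over the 9 libraries, and 1 pair kept its order in every library, so the exact rank of a gene is not resolved. The broad order was similar between libraries: Spearman's rho between libraries over the 39 members ran from 0.906 to 0.982 (median 0.962 over 36 pairs, with no p, since the members of a library share its depth). Its median was 0.963 over the 27 pairs from different groups and 0.962 over the 9 pairs within a group. HOXB7 ranked first in 6 libraries, HOXC6 in clone A4 replicates A and B, and HOXB9 in vector replicate B. In all 9 libraries 7 members stood among the first 10, among them HOXA9, HOXB7, HOXB9, HOXC6, HOXC8 and HOXC13. With the canonical transcript's length in place of unshared exon length, HOXC6 stood at 18.5 and HOXB3 at 9.91 CPM per kilobase, and 9 of the first 10 were shared.

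Of the 14 members at 10 CPM or more, 13 are given in each library, always in the order replicates A, B and C. In HOXB, HOXB3, a gene of the hindbrain and neck region, had 31.1, 33.3 and 34.1 CPM in A1, 22.4, 35.5 and 20.4 in A4 and 33.9, 42.3 and 41.6 in vector libraries. HOXB7, a trunk gene, had 26.01, 17.5 and 16.5 CPM in the clone A1 libraries, 16.7, 17.3 and 19.3 in those of clone A4 and 25.04, 23.3 and 17.9 with empty vector. HOXB9, the last gene before the gap that separates HOXB13, had 15.1, 22.2 and 27.4 CPM in A1, 22.4, 21.3 and 28.8 in A4 and 35.5, 40.3 and 29.1 in vector libraries. The groups overlapped for HOXB3 and HOXB7, whereas all 6 NCBP2 libraries lay below all 3 vector libraries for HOXB9, by a narrow margin between 28.8 and 29.1 CPM.

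In HOXC, HOXC4 had 8.80, 11.3 and 9.85 CPM in the clone A1 libraries, 8.56, 12.6 and 10.4 in those of clone A4 and 10.01, 13.8 and 9.83 with empty vector. HOXC6 had 32.9, 26.9 and 29.04 CPM in A1, 34.2, 37.4 and 25.03 in A4 and 28.2, 27.2 and 33.3 in vector libraries. HOXC8, a gene of the thoracic region, had 18.7, 18.8 and 24.8 CPM in the clone A1 libraries, 12.6, 15.5 and 16.1 in those of clone A4 and 18.1, 21.1 and 17.3 with empty vector. Groups overlapped for HOXC4 and HOXC6, and for HOXC8 the clone A4 libraries lay below both other groups. HOXC10, a lumbar and hindlimb gene, had 11.9, 16.7 and 17.8 CPM in A1, 19.7, 17.9 and 20.4 in A4 and 13.6, 21.2 and 11.7 in vector libraries. HOXC13, known for its part in hair and nail, had 17.1, 18.7 and 16.8 CPM in the clone A1 libraries, 14.1, 17.7 and 23.9 in those of clone A4 and 15.1, 28.7 and 13.4 with empty vector. For both genes vector replicate B was the highest of the 9 libraries, and the vector clones spanned both NCBP2 clones.

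In HOXA, HOXA7 had 6.48, 11.1 and 10.8 CPM in the clone A1 libraries, 11.5, 12.9 and 13.7 in those of clone A4 and 12.997, 11.9 and 7.03 with empty vector. HOXA9, which is also active in blood progenitors, had 21.5, 15.003 and 16.9 CPM in A1, 20.9, 20.4 and 13.3 in A4 and 23.4, 17.8 and 17.5 in vector libraries. Clone and vector libraries overlapped for both genes. HOXA10 had 8.45, 12.2 and 13.3 CPM in the clone A1 libraries, 11.3, 13.6 and 14.1 in those of clone A4 and 13.3, 14.8 and 12.9 with empty vector. HOXA13, a gene of the hand, foot and hindgut, had 34.5, 19.8 and 20.9 CPM in A1, 17.3, 17.8 and 13.5 in A4 and 13.7, 12.3 and 16.9 in vector libraries. HOXA10 overlapped between groups, while every clone A1 library lay above every vector and clone A4 library for HOXA13, clone A1 replicate A furthest. HOXD8, the only HOXD gene in this class, had 15.8, 12.3 and 12.9 CPM in the clone A1 libraries, 16.4, 15.8 and 9.18 in those of clone A4 and 10.8, 12.1 and 11.2 with empty vector. Clone A4 replicate C was the lowest of the 9 for HOXD8, so clone A4 overlapped the vector clones and clone A1 did not.

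**Figure D2:**
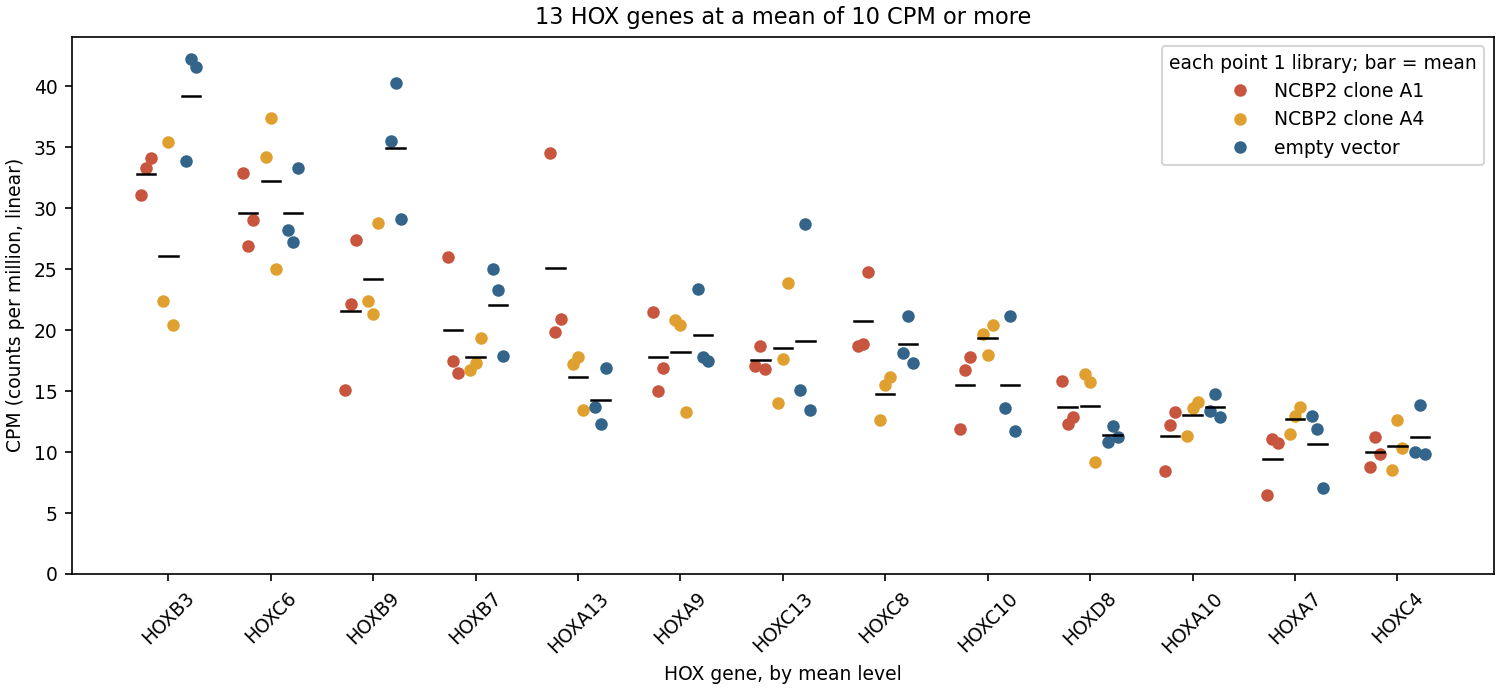
CPM (linear axis from 0) of 13 of the 14 HOX genes at a mean of 10 CPM or more; each point is 1 library, coloured by group, and each bar is the mean of 3 libraries. The vector points of HOXB9 lie above all NCBP2 points, the clone A1 points of HOXA13 lie above the rest with replicate A at 34.5, and the groups of most other genes are mixed.

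The 12 members from 1 to under 10 CPM were HOXA3, HOXA5, HOXA11, HOXB5, HOXB6, HOXB8, HOXB13, HOXC5, HOXC9, HOXC11, HOXD9 and HOXD10, with means from 1.04 CPM for HOXB8 to 9.61 CPM for HOXC9. HOXC9 was among the steadiest members, at 7.64, 12.02 and 9.97 CPM in A1, 11.4, 9.67 and 10.01 in A4 and 7.95, 9.64 and 8.25 in vector libraries. HOXA3, a gene of the throat arches and thymus, had 2.22, 4.79 and 4.26 CPM in the clone A1 libraries, 5.27, 6.85 and 6.16 in those of clone A4 and 6.76, 12.02 and 9.47 with empty vector. Every clone A1 library was below every clone A4 and vector library for HOXA3. HOXB13, a gene of the tail and prostate, had 1.76, 5.70 and 6.49 CPM in A1, 6.13, 5.32 and 7.14 in A4 and 8.21, 8.20 and 6.90 in vector libraries. Only 527 of the 1611 exon bases of HOXC5 are shared with no other gene on the strand, so its count, a mean of 2.42 CPM, may not cover the whole gene and is uncertain.

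Members under 0.1 CPM and their neighbours mark where the read stretches of a cluster ended. At the anterior end of HOXB, HOXB1 had 5 counts in all libraries together, and its neighbour HOXB2, a hindbrain gene, had 0.774, 0.914 and 0.235 CPM in the clone A1 libraries, 0.336, 0.910 and 0.403 in those of clone A4 and 1.17, 0.488 and 1.27 with empty vector. Within HOXC, HOXC12 had 15 counts in all, between HOXC13 and HOXC11, and HOXC11 had 6.23, 9.17 and 6.07 CPM in A1, 8.08, 10.1 and 11.8 in A4 and 5.81, 11.05 and 6.29 in vector libraries. HOXC12 was thus a single member at or near 0 between well-read neighbours, in every group. In HOXD both ends were low: HOXD1 had 21 counts, HOXD12 had 21 and HOXD13 had 10, the last in vector replicates B and C only, at 0.0781 and 0.146 CPM. The read members next to them were HOXD11, with 1.97, 0.538 and 0.799 CPM in the clone A1 libraries, 0.231, 0.182 and 0.806 in those of clone A4 and 0.542, 0.566 and 0.146 with empty vector, and HOXD3, with 0.422, 0.753 and 0.188 CPM in A1, 0.839, 0.842 and 0.537 in A4 and 0.585, 0.273 and 0.586 in vector libraries. A count of 0 allows up to 3 counts, or 0.0585 to 0.106 CPM by library, so most values of HOXB1, HOXC12, HOXD1, HOXD12 and HOXD13 are not distinguishable from 0; these floors cover counting error only. The other members under a mean of 1 CPM were HOXA2, HOXA4, HOXA6, HOXB4 and HOXD4, with means from 0.25 CPM for HOXD4 to 0.89 CPM for HOXA2.

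HOX clusters are transcribed on both strands, and the column used here counts the gene's own strand. HOXA2 had 704 counts on the opposite strand against 341 on its own, with the opposite strand ahead in 8 of 9 libraries. HOXC12 had 58 opposite-strand against 15 sense counts, and HOXD13 had 27 against 10. For these 3 low genes, a count made without regard to strand would mostly measure the other strand. HOXA7 had 4279 sense counts but 566 when strand was ignored, HOXD8 4922 against 2916, HOXA10 4927 against 3062 and HOXB3 12547 against 8311. The low gene HOXA4 had 326 against 138. A gene counter that ignores strand assigns a read over genes on both strands to neither. The levels of HOXA7, HOXD8, HOXA10, HOXB3 and HOXA4 thus depend on the column used and are uncertain to that extent.

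None of the 34 members that passed the filter on low counts differed between groups at an adjusted p under 0.05 (edgeR quasi-likelihood test, Benjamini-Hochberg over all 21682 genes tested), in any of 5 comparisons. Few genes of any kind did. In such bulk samples, fewer cells that use a gene and less of its RNA per cell cannot be told apart. With both NCBP2 clones against the vector clones, 0.0184% of all tested genes were called (4 genes), for clone A1 against vector 0.0646% (14), for clone A4 against vector 0.115% (25), for clone A4 against clone A1 0.161% (35) and for any difference among the 3 groups 0.184% (40). The lowest adjusted p of a HOX gene was 0.624 for both clones against vector, 0.277 for clone A1, 0.752 for clone A4, 0.676 between the clones and 0.370 among the 3 groups. A missed threshold does not show that levels were equal: the median standard error of a member's log2 fold change was 0.28 for both clones against vector and 0.31 for clone A1. The common biological coefficient of variation over all genes was 0.428 in the fit of 2 groups. Taken gene by gene in the fit of 3 groups, its median was 0.285 over the 34 members and 0.343 over all tested genes.

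At an unadjusted p under 0.05 the members' counts were close to the background. Both clones against vector gave 2 of 34 (5.71% of all genes), clone A1 3 (7.51%), clone A4 2 (5.25%), clone A4 against clone A1 2 (6.63%) and the 3 groups 3 (7.32%). HOXA3 had the largest difference of these: its log2 fold change was -1.32 ± 0.34 (SE) for clone A1 against vector (adjusted p = 0.277) and -0.63 ± 0.34 for clone A4. With DESeq2 in place of edgeR the clone A1 difference had an adjusted p of 0.0200, and with no filter on low counts it had 0.0337 in edgeR, so this 1 member is called or not by choice of method. HOXB9 had -0.61 ± 0.20 for both clones against vector, -0.70 ± 0.25 for clone A1 and -0.53 ± 0.24 for clone A4. HOXA13 had 0.81 ± 0.26 for clone A1 against vector, and 0.52 without clone A1 replicate A. The remaining members under that p were HOXB3 in clone A4 against vector, at -0.59 ± 0.23, and HOXC8 (-0.49 ± 0.21) with HOXA13 (-0.63 ± 0.26) between the clones. Without clone A1 replicate A, HOXA13 had -0.34 there.

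Genes whose libraries did not overlap between groups were counted as well. Both clones against vector gave 1 of 34 members, or 2.94%, which was HOXB9, lower (3.74% of all genes did not overlap). Clone A1 against vector gave 6, or 17.6% (14.2% of all genes): HOXA13 and HOXD8 higher, HOXA3, HOXB5, HOXB9 and HOXB13 lower. Clone A4 against vector gave 5, or 14.7% (12.1%): HOXA4, HOXC9 and HOXD9 higher, HOXB9 and HOXC8 lower. Clone A4 against clone A1 gave 8, or 23.5% (13.6%): HOXA3, HOXA6, HOXA7, HOXB5 and HOXC10 higher, HOXA13, HOXC8 and HOXD4 lower. The members' share was thus above that of all genes in the 3 comparisons with clones taken singly, most between the clones, and below it for both clones together; these differences in share were not tested, and neighbouring genes are not independent. The clone comparisons with vector share the vector libraries. Without clone A1 replicate A, 2 members (HOXB9 and HOXC9) did not overlap for both clones against vector, or 5.88% against 5.37% of all genes. Clone A1 against vector then gave 10, or 29.4% against 23.1%, and clone A4 against clone A1 gave 11, or 32.4% against 21.7%.

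**Figure D3:**
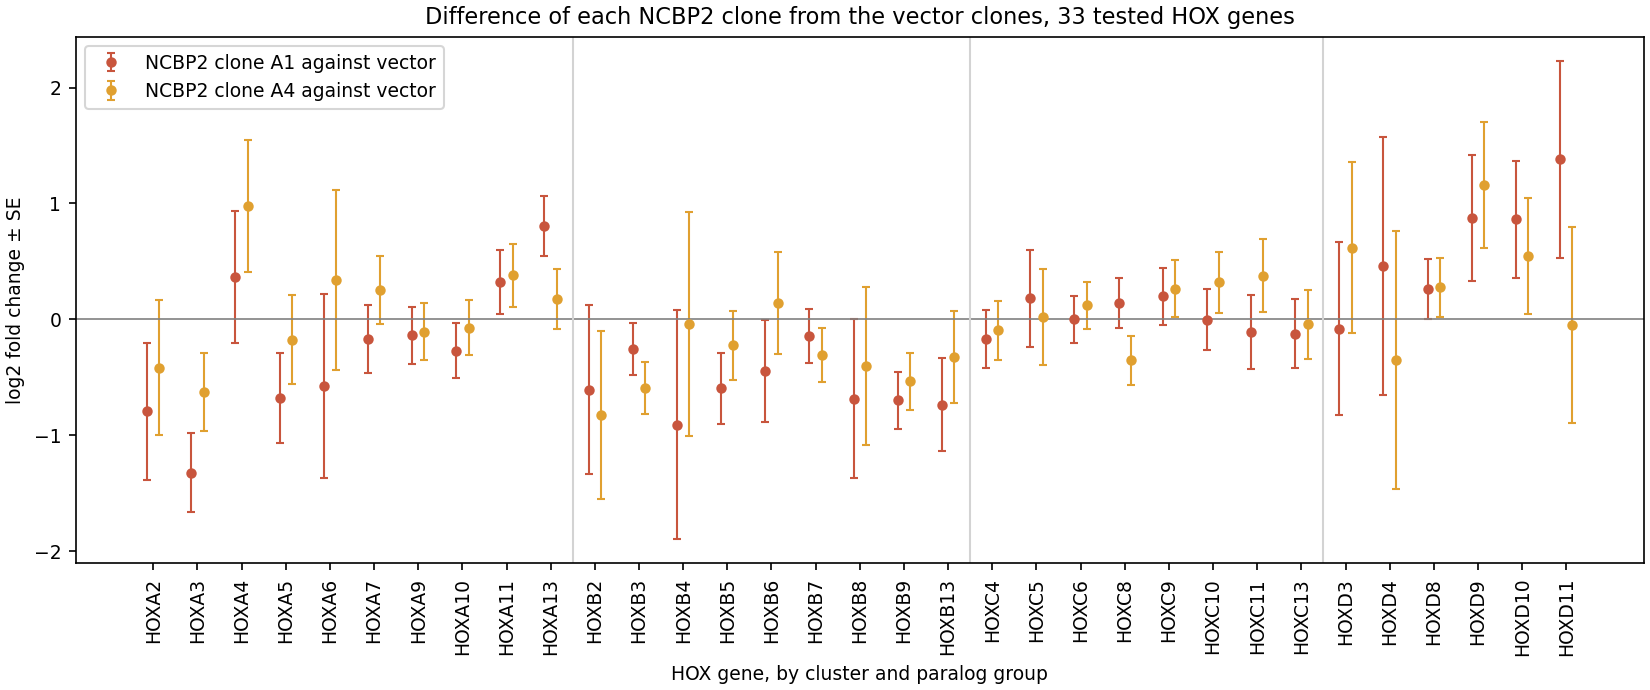
Log2 fold change of each NCBP2 clone against the 3 vector clones for 33 of the 34 tested HOX genes, ordered by cluster and paralog group; points are edgeR estimates and bars are 1 SE. HOXB points lie at or under 0 except HOXB6 in clone A4, HOXD points lie mostly above 0 with wide bars, and no gene passed the adjusted threshold in this fit.

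By cluster, the direction differed between HOXB and HOXD. All 9 tested HOXB members had estimates below 0 for both clones against vector, with a median log2 fold change of -0.41, and all 6 tested HOXD members had estimates above 0, with a median of 0.51. HOXA had 4 above and 7 below (median -0.04), HOXC had 5 above and 3 below (median 0.08), and over all tested genes 53.0% were above 0 with a median of 0.02. The signs were less uniform in each clone. In clone A1 alone all 9 HOXB members were below 0 (median -0.61), and 5 of 6 HOXD members were above 0 (median 0.66), with HOXD3 at -0.08. In clone A4 alone 8 of 9 HOXB members were below 0 (median -0.33), and 4 of 6 HOXD members were above 0 (median 0.41), with HOXD4 at -0.35 and HOXD11 at -0.05. Without clone A1 replicate A, the HOXB median for clone A1 was -0.34, and for both clones the HOXD median was 0.33 and the HOXC median -0.02. Without vector replicate C, the HOXD median for clone A1 was 0.33. The genes of a cluster lie side by side and are not independent of each other, and none of these 15 estimates passed the threshold.

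The summed HOXB level was 80.5, 87.1 and 96.6 CPM in the clone A1 libraries, 79.3, 89.4 and 91.02 in those of clone A4 and 114.9, 127.8 and 109.5 with empty vector. All 6 NCBP2 libraries lay below all 3 vector libraries, with HOXB3 and HOXB9 making up most of the sum. The summed HOXD level was 23.5, 20.1 and 19.6 CPM in A1, 22.7, 21.4 and 17.1 in A4 and 14.3, 17.99 and 14.7 in vector libraries. Here clone A4 replicate C, at 17.1 CPM, lay within the range of the vector clones, and HOXD8 made up most of the sum. The sum over all 39 members ran from 305.6 to 380.4 CPM, highest in vector replicate B.

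**Figure D4:**
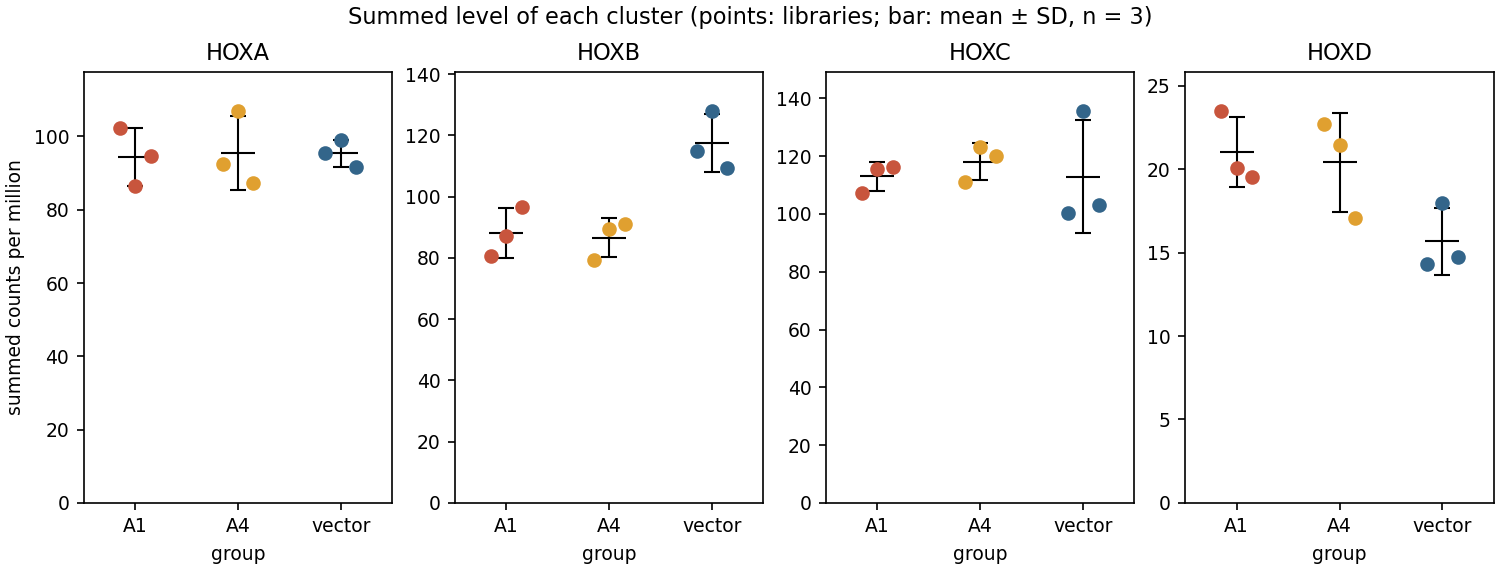
Summed CPM of the members of each HOX cluster, by group; points are libraries, and the bar is the mean ± SD of 3 libraries, on axes that start at 0 and differ between panels. HOXB lies at 109.5 to 127.8 in the vector clones and at 79.3 to 96.6 in the NCBP2 clones, while HOXA and HOXC overlap.

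Genes around the clusters were read in the same way. Of the 47 other tested genes within 1 Mb of HOXB (chr17:48528526-48728750, GRCh38), 39 had estimates below 0 for both clones against vector, with a median log2 fold change of -0.29. All 9 other tested genes within 1 Mb of HOXD (chr2:176092721-176190907) had estimates above 0, with a median of 0.58. Around HOXA 6 of 10 were above 0 (median 0.05), and around HOXC (chr12:53938831-54056030) 17 of 45 were (median -0.10). The HOXA and HOXC neighbour medians took either sign over the alternatives run. No neighbour passed the threshold in any of the comparisons of 2 groups. Without clone A1 replicate A, 8 of 9 HOXB members and 37 of the 47 neighbours were below 0, and all 6 HOXD members and 8 of the 9 neighbours were above 0.

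Stability was also described by the SD of log2 CPM. Over the 9 libraries the median SD of the 34 tested members was 0.41, against 0.50 over all tested genes, and at 10 CPM or more it was 0.28 for both the 14 members and all 9364 genes. Among the 3 vector clones, which are separate lines, the median was 0.28 (0.39 over all genes), and within clone A4 it was 0.28 (0.37). Within clone A1 it was 0.43 (0.44), and 0.20 (0.20) without replicate A. The SD between vector clones exceeded that within clone A4 in 20 of 34 members and that within clone A1 in 14. Without replicate A the latter count was 23, but the clone A1 SD then rests on 2 libraries. An SD of 2 values tends to be smaller than an SD of 3, so these counts are not alike. So separate vector lines and libraries of 1 clone had spreads of similar size, with neither larger in all members.

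The steadiest members were HOXC6 (SD 0.19), HOXC9 (0.22) and HOXC4 (0.23). The largest SDs belonged to low members: HOXB4 (1.41), HOXD11 (1.07) and HOXB8 (0.95). HOXB4 had 0, 0.457 and 0.729 CPM in the clone A1 libraries, 0.902, 0.273 and 1.03 in those of clone A4 and 0.628, 0.742 and 0.903 with empty vector. HOXB8 had 0.141, 0.699 and 1.60 CPM in A1, 1.26, 0.887 and 0.851 in A4 and 1.30, 1.44 and 1.22 in vector libraries. In both genes clone A1 replicate A was the lowest library, and without it their SDs were 0.58 and 0.40; HOXD9 (0.94), HOXD4 (0.92) and HOXD11 (0.85) then had the largest. HOXD members other than HOXD8 had at most 151 counts in a library.

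Of the noncoding RNAs of the clusters, many of them antisense to HOX genes and some known to act on chromatin, 24 were listed. Of these, 13 passed the filter and 7 reached a mean of 1 CPM. The list includes short microRNA genes, and MIR10A, MIR10B, MIR196B and MIR615 had 0 counts in all libraries. MIR10A and MIR196B had no level per kilobase of unshared exon, so their 0 says nothing about transcription. How well such short genes could be read was not tested. HOTAIR, transcribed between HOXC12 and HOXC11, had 14.8, 10.8 and 7.31 CPM in the clone A1 libraries, 7.62, 7.01 and 6.65 in those of clone A4 and 8.38, 8.66 and 8.34 with empty vector. Its vector libraries lay close together and clone A1 replicate A was the highest. HAGLR (mean 3.24 CPM) and HOXD-AS2 (2.67) come from HOXD, HOTAIRM1 (2.38) and HOXA-AS2 (1.14) from HOXA, and HOXC-AS3 (1.29) and HOXC13-AS (1.06) from HOXC. None of the 13 was called in any of the 4 comparisons of 2 groups. Their median log2 fold change was 0.09 for both clones against vector, 0.27 for clone A1 (0.06 without its replicate A) and -0.08 for clone A4, and each of these medians took either sign over the alternatives run.

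For genes that work with or on HOX genes, the 2 members of each list with the highest mean CPM are named, or 1 of them for the cofactors; these CPM values are not per length. MEIS proteins are homeodomain cofactors that bind DNA beside HOX proteins, and MEIS1 had a mean of 66.6 CPM in that list, with 8 of 9 tested. Polycomb proteins keep unused HOX genes silent: all 23 were tested, led by RBBP4 (354.8 CPM) and BMI1 (287.5 CPM). Trithorax and elongation proteins keep used ones active: all 17 were tested, led by KMT2A (246.6 CPM) and AFF1 (194.5 CPM). Retinoid and CDX genes, which set HOX domains in the embryo, had 10 of 15 tested, led by RXRA (33.6 CPM) and RARA (24.1 CPM). Limb-position transcription factors had 12 of 17 tested, led by TBX3 (42.3 CPM) and SHOX2 (11.75 CPM). Flanking homeobox and neighbour genes had 10 of 16 tested, led by CBX5 (751.7 CPM) and HIBADH (66.8 CPM). CBX5 is given by library because its groups differed: 606.7, 637.8 and 678 CPM in A1, 583.9, 717 and 596.8 in A4 and 1027, 889.3 and 1029 in vector libraries. Its log2 fold change for both clones was -0.62 ± 0.12 (edgeR adjusted p = 0.150). Other listed genes also did not overlap between NCBP2 and vector libraries, in both directions, so list medians near 0 do not describe each gene. No gene of these 6 lists was called in any of the 4 comparisons of 2 groups, higher or lower. Their median log2 fold changes for both clones against vector were -0.01 for the cofactors, -0.04 for Polycomb, 0.01 for Trithorax and elongation, 0.05 for retinoid and CDX, 0.23 for limb-position and -0.20 for flanking genes, against 0.02 over all tested genes.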

How the data were processed

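The deposited files hold raw counts per gene for 9 libraries, in columns for unstranded, sense and opposite-strand counts. Per the submitters' processing notes, STAR 2.7.1a and GRCh38 were used; the annotation behind the counts is not given in the sources used here. Sense counts were used, since they fit the HOX genes' strands. Identifiers were matched to GENCODE release 44 by gene ID (60295 of 60609, and 39 of 39 HOX genes; 25 of these with the same version). Lines for reads in no gene (44.5% to 63.6% of reads) stayed out of library sizes and tests.

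Levels are CPM with TMM library sizes. The main test was edgeR 4.0.16 (R 4.3.3) quasi-likelihood with filterByExpr, on all 9 libraries in 2 or 3 groups. Benjamini-Hochberg adjustment was over 21682 genes, with a threshold of 0.05. Each standard error (SE) was worked back from the test, as the absolute log2 fold change divided by the square root of the F statistic. The code was run on simulated counts, but their spread was set smaller than that of these libraries. That run therefore does not show how many real differences the test would find here. SDs of log2 CPM used a prior count of 2. Alternatives were DESeq2 1.42.0, its size factors, no filter, unstranded counts, summed clones, a block for the replicate letter and leaving out each library. Sequences were read with Biopython 1.88 from the GENCODE transcripts.

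Members and gene lists were chosen with earlier results of these data known. Named were all members at 10 CPM or more, the 3 smallest and 3 largest SDs, members at the edges of the read stretches, any member past the threshold, and, of other lists, the top 2 by mean CPM and HOX noncoding RNAs at 1 CPM or more; members under an unadjusted p of 0.05 or without overlap were named after their values were seen. Libraries of a group were not duplicates: chi-square per degree of freedom was 29.8 or more in every pair. One HOX gene at 10 CPM or more, 1 cofactor gene and 1 shared stretch of sequence are not reported here by name or value; they stay in the counts and tests.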

Additional observations from a re-analysis of the deposited data

Results flagged for a closer look

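In the group of 6 NCBP2 libraries, 26 members were examined for a library far from the others, and 4 had one. All 4 were clone A1 replicate A. It was the highest for HOXA13, at 34.5 CPM with the next library at 20.9 CPM, for HOXB7, at 26.0 CPM with the next at 19.3 CPM, and for HOXC5, at 3.98 CPM with the next at 2.48 CPM. It was the lowest for HOXB13, at 1.76 CPM with the next at 5.32 CPM. Among groups of 6 alike libraries, chance gives such a library in about 1 in 20. These 6 come from 2 clones, so that rate need not hold here, and the 26 members share their libraries.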

How the results depend on the processing

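Over 74 alternatives of the 5 comparisons, the count of HOX members called was 0 in 71 and 1 in 3, each time HOXA3: for clone A1 against vector it was 1 with DESeq2 and 1 with no filter on low counts, and among the 3 groups it was 1 with DESeq2 (adjusted p = 0.0439). Those fits called 274, 312 and 441 of all genes. Its log2 fold change for clone A1 ran from -1.54 to -1.05, with adjusted p from 0.0200 to 0.560; the cause was not tested. Members without overlap numbered 2 for both clones against vector and 10 for clone A1 without clone A1 replicate A, where groups are smaller; these checks were chosen after seeing the data, as were the counts of HOXB and HOXD directions, the transcript length and the SDs without that library. The HOXB count below 0 was 8 or 9 in all alternatives run, and the HOXD count above 0 was 5 or 6. Leaving out vector replicate B left 33 of 47 HOXB neighbours below 0. The number of members at 1 CPM or more in every library was 22 to 24, 24 at 0.5 CPM and 19 at 2 CPM. Median log2 fold changes over all tested members moved by at most 0.12 in the 4 comparisons of 2 groups. The SD of the members' median log2 CPM between libraries of a group, a different measure, was 0.24. The median fold changes ran from -0.17 to 0.02 for both clones, from -0.24 to -0.07 for clone A1 and from -0.10 to 0.08 for clone A4. Between the clones the range was 0.09 to 0.20. For both clones and for clone A4 the median thus took either sign. By cluster, in checks also added after seeing the data, medians for both clones ran from -0.55 to -0.35 for HOXB and from 0.33 to 0.75 for HOXD, and those of HOXA and HOXC took either sign. The labels do not say whether a replicate letter marks a shared batch. Same-letter correlations ran from -0.102 to 0.179, with 6 of 9 over 0.1, and those of the 18 other pairs from -0.271 to 0.221. Of 9 libraries, 4 correlated best with their own letter, and a batch effect of the letters was not tested. With a replicate block, 0 HOX members were called in each of the 5 comparisons. Calls over all genes were then 13 for both clones, 38 for clone A1, 53 for clone A4, 51 between clones and 88 among the groups. Without the block they were 4, 14, 25, 35 and 40, in the same order. Members under 1 CPM rest on few counts, which limits what could be seen in them.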
